A study of Homo sapiens with 2 samples.

Results

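Zinc transporter and metallothionein genes were examined in the ovarian cancer cell line A1847, which is of human origin, with and without CARM1, an arginine methyltransferase that acts as a transcriptional coactivator. The members were the protein-coding genes whose symbols begin with SLC30A or SLC39A, the metallothionein genes MT1A, MT1B, MT1E, MT1F, MT1G, MT1H, MT1M, MT1X, MT2A, MT3 and MT4, and MTF1. They numbered 36 of the 57736 genes of the count table, made up of 10 SLC30 genes, 14 SLC39 genes, 11 metallothionein genes and MTF1. RNA-Seq was available from 1 library of parental cells, labelled CARM1 wild type, and 1 library of CARM1 KO cells. The CARM1 KO cells were a single clone made by CRISPR with a lentiviral guide RNA against CARM1, and both lines were grown in the same serum-containing medium.

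Zinc is held at a low free level in the cytosol. SLC39 (ZIP) transporters bring zinc into the cytosol from outside the cell or from organelles, SLC30 (ZnT) transporters remove it to the outside or into organelles, and metallothioneins are small cysteine-rich proteins that bind zinc, copper and cadmium. MTF1 is a zinc-sensing transcription factor that binds metal response elements, short motifs in the promoters of metallothionein genes and of the zinc exporter gene SLC30A1.

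The libraries held 30741953 reads from parental cells and 32300391 reads from CARM1 KO cells. CARM1 itself had 975 parental and 380 CARM1 KO reads, 2.63-fold lower (95% interval 2.33 to 2.97). Of 8 markers of ovarian epithelial cancer, PAX8 and EPCAM were present in both libraries, with 311 and 249 reads in parental and 1149 and 848 reads in CARM1 KO cells, while MUC16 had 0 and 1 reads, WT1 had 8 and 1 reads, and KRT19 had 45 and 0 reads. The summed reads of these markers were 43784 in parental and 150245 in CARM1 KO cells. Most of them came from the keratin genes KRT8 (17600 and 70370 reads), KRT18 (21154 and 51223) and KRT7 (4417 and 26653). Of the 4 fibroblast markers, THY1, LUM and DCN were lower and COL1A1 was higher in CARM1 KO cells, and their sum was 894 and 542 reads. The 4 immune markers summed to 407 and 1653 reads, almost all of them from CD68, with CD3E at 0 in both libraries and PTPRC at 6 and 0 reads. The endothelial markers CDH5 and VWF summed to 1 and 2 reads, and PECAM1 was not analysed here. The part of these marker differences in the results for the members was not tested.

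Fold changes compare CARM1 KO with parental cells after scaling of the libraries by the TMM method. Their intervals are exact 95% binomial intervals, which cover counting error only. With 1 library per group no difference has a replicate check. No test between the conditions with a spread estimated from replicates was possible, so every difference is one between these libraries. A gene with 10 or more reads, summed over the libraries, was called higher or lower when its fold change passed 3 and its interval left out 1. Across all 18563 such genes, 12.4% were called higher and 11.2% lower, and across the 14140 protein-coding ones the shares were 12.4% and 9.02%. Among the members, 25 of 36 had at least 10 reads, 3 had between 1 and 9 reads and 8 had none. Of the 25, 5 were called higher and 1 was called lower. The 5 were MT2A, MT1E, MT1M, MT1X and SLC30A3, and the 1 was SLC30A8.

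**Figure D1:**
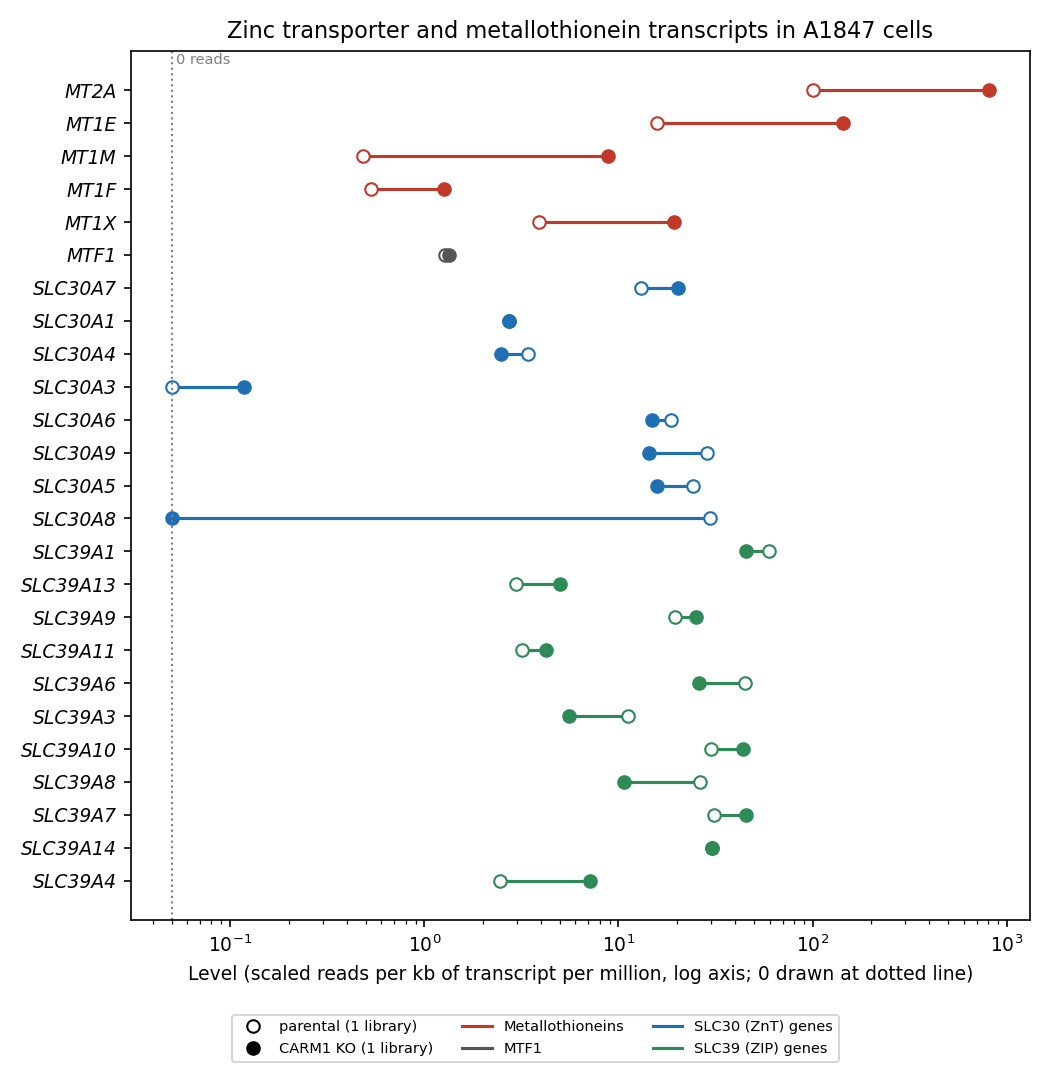
Level of each member with at least 10 reads (RPKM, log axis) in the 1 parental library (open circles) and the 1 CARM1 KO library (filled circles), joined by a line coloured by family. The 5 metallothioneins lie to the right in CARM1 KO cells, SLC30A8 drops from 29.5 to 0 (drawn at the dotted line), and MTF1 and SLC30A1 nearly coincide.

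Of the 5 metallothionein genes with 10 or more reads, 4 were called higher in CARM1 KO cells and 0 lower, where 12.4% of all such genes were called higher. The 11 genes lie together on chromosome 16 of GRCh37 between 56598985 and 56718108, a stretch of 119 kb. MT2A, the most widely expressed human metallothionein, had 1249 parental and 10354 CARM1 KO reads. It was 8.10-fold higher (95% interval 7.63 to 8.59). In bulk RNA a higher level per cell and a larger share of expressing cells cannot be told apart, here and for every gene that follows. MT1E had 368 parental and 3422 CARM1 KO reads, 9.08-fold higher (8.15 to 10.1). MT1X had 49 and 250 reads and was 4.98-fold higher (3.66 to 6.91), a smaller difference than those of MT2A and MT1E by their counting intervals. MT1X was not called by edgeR's exact test at an assumed coefficient of variation of 0.4, which called MT2A, MT1E and MT1M. At an assumed value of 0.2 the same test called MT1X as well. MT1M had 6 and 112 reads, 18.2-fold higher (8.12 to 50.7), and passed the minimum of 10 reads through the CARM1 KO library. MT1F had 7 and 17 reads, a ratio of 2.37 whose interval (0.935 to 6.77) included 1. The other 6 genes, MT1A, MT1B, MT1G, MT1H, MT3 and MT4, had 0 reads in both libraries, which allows up to 3 reads in each.

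Each of the 11 protein-coding genes thus had reads either in both cell lines or in neither. Together the 11 genes had 1679 parental and 14155 CARM1 KO reads, 8.23-fold higher (95% interval 7.83 to 8.67). The median log2 difference of the 5 genes with at least 10 reads was 3.02, beside -0.02 over all genes with at least 10 reads. These members were chosen with earlier results of the same libraries known, so the median describes them and is not a test. Only 1.45% of all genes with at least 10 reads had a larger log2 difference than MT2A, and 1.06% had a larger one than MT1E. Levels were compared between genes as RPKM, the reads per kb of canonical transcript scaled to the size of the library. The level of MT2A was 100.02 RPKM in parental and 810 RPKM in CARM1 KO cells, and that of MT1E was 15.8 and 144 RPKM. Among protein-coding genes with at least 10 reads, MT2A was above 95.2% of genes in parental cells and above 98.9% in CARM1 KO cells. MT1E moved from above 72.3% to above 96.5%. The transcripts of most metallothioneins are near 400 nt (401 nt for MT2A, 404 nt for MT1X), and RPKM values of such short transcripts depend on the fragment sizes kept in library preparation.

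The make-up of the metallothionein reads differed little between the libraries. MT2A took 74.4% of them in parental (95% interval 72.2 to 76.5) and 73.1% in CARM1 KO cells (72.4 to 73.9). MT1E took 21.9% (19.96 to 23.97) and 24.2% (23.5 to 24.9). The intervals of these genes overlapped between the libraries, those of MT1E only narrowly. Such overlap does not show that the shares were equal, and a difference in share was not tested. The intervals of MT1X did not overlap, with 2.92% (2.17 to 3.84) in parental and 1.77% (1.56 to 1.997) in CARM1 KO cells. MT1M and MT1F each took under 1% in both libraries.

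The authors' counting can divide reads between genes that share sequence, and the metallothioneins are close paralogs. Among the canonical transcripts of the 11 genes and of the pseudogenes MT1L and MT1JP, cut into stretches of 75 bases, the read length, MT1X shared 22 of its 330 stretches with MT1G, and no stretch of MT2A, MT1E, MT1M, MT1F or MT1L was found in another of these transcripts. The comparison counted exact matches only, so reads with mismatches could still have been divided. MT1L and MT1JP entered it with annotated transcripts of only 186 nt, so sharing outside these was not examined. MT1L, a transcribed relative of the cluster that lacks a functional reading frame, had 251 parental and 1704 CARM1 KO reads and was 6.63-fold higher (95% interval 5.80 to 7.601). MT1JP had 0 and 7 reads, and MT1CP and MT1DP had 0 in both. MT1IP was not analysed here. With the reads of MT1L added, the metallothionein total was 8.03-fold higher in CARM1 KO cells (95% interval 7.65 to 8.42).

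MTF1, the transcription factor of the metal response, had 314 parental and 340 CARM1 KO reads, a ratio of 1.06 whose interval (0.904 to 1.24) included 1. SLC30A1, which encodes the plasma membrane zinc exporter and is a target of MTF1 in many cells, had 500 and 514 reads and a ratio of 1.00 (95% interval 0.886 to 1.14). The upper ends of these intervals, 1.24 for MTF1 and 1.14 for SLC30A1, were below the lower end for each of the 4 metallothioneins called higher. The RNA level of MTF1 does not measure the activity of its protein.

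Promoters are shown for a pair of metallothionein genes that were higher in CARM1 KO cells (MT2A and MT1X), a pair without a read in either library (MT1H and MT1B), and SLC30A1. Each is the stretch of 250 bases before the RefSeq start in GRCh38.p14, written 5′ to 3′ in the direction of the gene. Capitals mark the core of the metal response element, TGCACNC or TGCGCNC, found on either strand, so that a core on the opposite strand appears as its reverse complement. No overlap with another motif was searched.
MT2A (chr16:56608334-56608583, plus strand): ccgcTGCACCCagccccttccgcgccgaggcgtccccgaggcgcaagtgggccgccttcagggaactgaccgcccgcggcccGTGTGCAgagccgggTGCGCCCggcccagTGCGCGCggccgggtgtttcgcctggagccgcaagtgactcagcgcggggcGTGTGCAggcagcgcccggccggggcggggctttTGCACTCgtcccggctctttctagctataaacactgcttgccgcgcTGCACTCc
MT1X (chr16:56682220-56682469, plus strand): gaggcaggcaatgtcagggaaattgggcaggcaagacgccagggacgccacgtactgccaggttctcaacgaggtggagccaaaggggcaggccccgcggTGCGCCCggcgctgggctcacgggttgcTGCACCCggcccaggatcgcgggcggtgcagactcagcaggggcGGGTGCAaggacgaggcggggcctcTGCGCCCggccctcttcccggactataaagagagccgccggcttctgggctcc
MT1H (chr16:56669564-56669813, plus strand): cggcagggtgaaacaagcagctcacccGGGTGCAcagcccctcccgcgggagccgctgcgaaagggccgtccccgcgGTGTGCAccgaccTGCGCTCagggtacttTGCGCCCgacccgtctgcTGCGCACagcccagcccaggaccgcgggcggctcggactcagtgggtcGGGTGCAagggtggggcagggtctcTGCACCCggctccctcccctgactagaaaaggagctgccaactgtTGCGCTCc
MT1B (chr16:56651636-56651885, plus strand): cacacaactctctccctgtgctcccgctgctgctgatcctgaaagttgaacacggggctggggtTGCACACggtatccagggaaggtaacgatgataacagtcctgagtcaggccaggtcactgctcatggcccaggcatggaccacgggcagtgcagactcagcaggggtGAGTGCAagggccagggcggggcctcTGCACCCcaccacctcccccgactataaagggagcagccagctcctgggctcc
SLC30A1 (chr1:211579162-211579411, minus strand): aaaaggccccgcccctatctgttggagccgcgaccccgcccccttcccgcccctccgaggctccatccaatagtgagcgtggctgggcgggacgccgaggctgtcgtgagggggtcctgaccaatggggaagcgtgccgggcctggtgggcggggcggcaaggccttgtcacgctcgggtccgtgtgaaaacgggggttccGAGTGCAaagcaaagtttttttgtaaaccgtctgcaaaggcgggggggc

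The promoter of MT2A held 7 cores, 5 of them on the strand of the gene, and that of MT1X held 4. The silent genes MT1H and MT1B held 8 and 3. The first base of a core lay 53 bases before the start in MT1X, MT1H and MT1B and 54 bases before it in MT2A. MT4, also without reads, held 3 cores, and SLC30A1 held 1. Of 35097 RefSeq promoters of this length, 24.8% held at least 1 core and 1.58% held at least 3. All 5 metallothionein promoters found in the RefSeq table were in the latter class, whether or not the gene had reads. RefSeq promoters were found for 27 of the 36 members, and MT1A, MT1E, MT1F, MT1G, MT1M, MT3, SLC30A8, SLC39A4 and SLC39A14 were without one. Of the transporter promoters, only that of SLC30A2, which had 1 and 0 reads, held 3 cores, and the others held at most 2. These matches are descriptions of the letters and do not show binding.

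**Figure D2:**
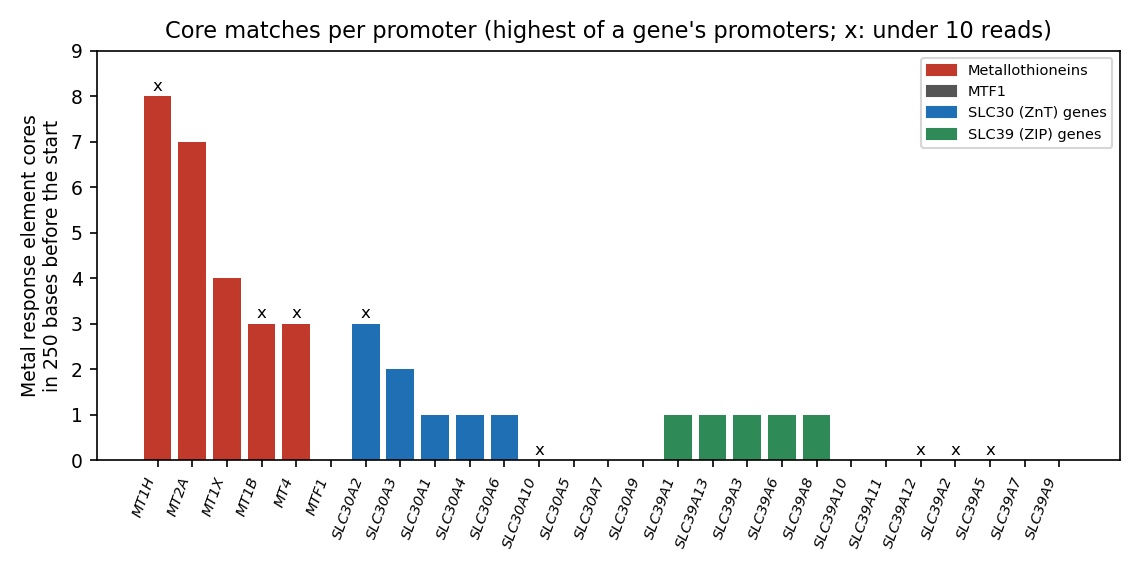
Number of metal response element cores in the 250 bases before the start, for the 27 members with a RefSeq promoter (the promoter with most cores where a gene has several), coloured by family, with x above members that had under 10 reads. The metallothioneins held between 3 and 8 cores with or without reads, and most transporter genes held 0 or 1.

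Genes on either side of the metallothionein cluster were compared with it. The 10 nearest protein-coding genes with at least 10 reads on each side lay between 53524952 and 57495182 on chromosome 16. Their median log2 difference was 0.71, with a range from -0.13 to 2.56. Of them 4 were called higher and 0 lower, beside 12.4% and 9.02% of all protein-coding genes with at least 10 reads. The nearest neighbour on one side, BBS2, had 1004 parental and 1806 CARM1 KO reads, 1.76-fold higher (95% interval 1.63 to 1.90). NUP93, the nearest on the other side, had 3320 and 5732 reads, 1.69-fold higher (1.62 to 1.76). The neighbours called higher were NLRC5 with 21 and 137 reads (6.37-fold), IRX3 with 2 and 15 reads (ratio 7.33, interval 1.70 to 66.0), IRX5 with 4 and 27 reads (6.59-fold) and PLLP with 7 and 41 reads (5.72-fold). Of these, IRX3, IRX5 and PLLP passed the minimum of 10 reads through the CARM1 KO library, so the count of neighbours called higher depends on that minimum. On the log2 scale with a prior count of 2, MT2A (3.02) and MT1E (3.18) were above each of the 20 neighbours. MT1X (2.27) was below NLRC5 (2.56), and by fold, at 4.98, it was below all 4 neighbours called higher, with intervals that overlapped theirs. MT1F was also below several neighbours, and MT1M, at 3.803, had passed the minimum through the CARM1 KO library.

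**Figure D3:**
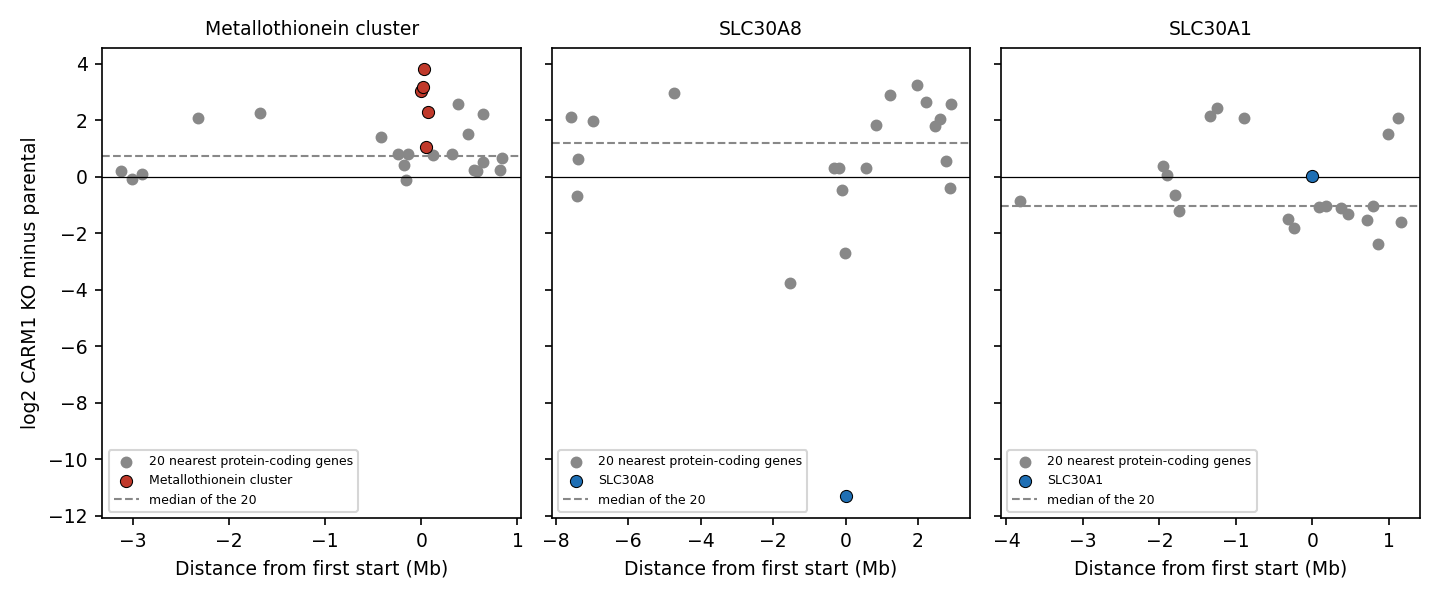
log2 difference between the libraries (CARM1 KO minus parental, prior count 2) of members (coloured) and of the 20 nearest protein-coding genes with at least 10 reads (grey, dashed line at their median), against distance in Mb from the first member with reads, MT2A in the left panel. MT2A and MT1E lie above all 20 neighbours and MT1X and MT1F do not, SLC30A8 lies below its own, and SLC30A1 lies at 0.01 where the median of its neighbours is -1.04.

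Among the SLC30 genes, the vesicular transporter SLC30A8 was lost from the reads of CARM1 KO cells. SLC30A8 (ZnT8), best known for loading zinc into the insulin granules of pancreatic beta cells, is encoded at 117962512 to 118188953 of chromosome 8 (GRCh37, plus strand). Its counts were 5035 parental and 0 CARM1 KO reads. Set against the 3 reads that a count of 0 allows, its level was 1718-fold lower, with an interval that begins at 1397. Only 7 of the 18563 genes with at least 10 reads had a lower log2 difference. In parental cells the level of SLC30A8, 29.5 RPKM, stood first among the SLC30 genes beside 28.6 RPKM for SLC30A9, an order that was not tested, and it was above that of 83.6% of protein-coding genes. It took 23.9% of the SLC30 reads of parental cells (95% interval 23.3 to 24.5) and 0 of 13602 in CARM1 KO cells, which allows a share of up to 0.0221%.

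The genes around SLC30A8, which were examined after its values were seen, went both ways. AARD, the nearest expressed gene on one side, had 914 parental and 141 CARM1 KO reads and was 6.64-fold lower (95% interval 5.55 to 7.98). TRPS1 further along the same side had 9549 and 717 reads and was 13.6-fold lower (12.6 to 14.7). RAD21 and UTP23 lie between AARD and TRPS1 and had ratios of 0.721 and 1.23. MED30, the nearest on the other side, had 675 and 855 reads, a ratio of 1.24. The 20 nearest protein-coding genes with at least 10 reads lay between 110374690 and 121063157, and their median log2 difference was 1.201. Of these, 10 were called higher and 2 lower, beside 12.4% and 9.02% of all protein-coding genes with at least 10 reads. Those called higher included EXT1, with 3277 and 11824 reads. They also included genes such as MAL2, with 4 and 36 reads, that passed the minimum through the CARM1 KO library.

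The other SLC30 genes with 10 or more reads, apart from SLC30A3, differed by at most 1.996-fold. SLC30A9, a mitochondrial zinc transporter also described as a nuclear receptor coactivator, had 5493 parental and 2817 CARM1 KO reads, 1.996-fold lower (95% interval 1.91 to 2.09). SLC30A5, SLC30A6 and SLC30A7 supply zinc to enzymes of the early secretory pathway, SLC30A5 and SLC30A6 as a heterodimer. SLC30A5 had 3020 and 2003 reads and was 1.54-fold lower (1.46 to 1.63). SLC30A6 had 2944 and 2416 reads and was 1.25-fold lower (1.18 to 1.32). SLC30A7 went the other way, with 3319 and 5276 reads, 1.55-fold higher (1.49 to 1.62). The partners of the heterodimer were thus both lower, and SLC30A7 was higher. SLC30A4, which fills intracellular vesicles, had 760 and 565 reads and was 1.38-fold lower (1.23 to 1.54).

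SLC30A3, the zinc transporter of synaptic vesicles, had 0 parental and 11 CARM1 KO reads. It was called higher, 3.58-fold against 3 reads with an interval that begins at 2.45, but it passed the minimum through the CARM1 KO library alone. It also overlaps DNAJC5G, which lies on the opposite strand and had 4 and 25 reads, and the use of strand in the counting is not given in the sources used here. SLC30A2 had 1 read in parental cells, and SLC30A10, a manganese exporter, had 0 reads in both libraries. With 1 of 8 genes called in each direction, the SLC30 genes did not stand out from the background of 12.4% higher and 11.2% lower, and their median log2 difference was -0.39. The summed reads of the family were lower in CARM1 KO cells by 1.59-fold (1.55 to 1.62), and without SLC30A8 they were 1.21-fold lower (1.18 to 1.24).

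The order within the SLC30 family differed between the libraries, also with SLC30A8 set aside. SLC30A7 took 15.8% of the family's reads in parental (95% interval 15.3 to 16.2) and 38.8% in CARM1 KO cells (38.0 to 39.6). With the reads of SLC30A8 left out of the total, its share in parental cells was 20.7% (20.1 to 21.3) and that of SLC30A9 was 34.3% (33.5 to 35.0), and in CARM1 KO cells SLC30A9 took 20.7% (20.03 to 21.4). The level of SLC30A7 in CARM1 KO cells was 20.2 RPKM. SLC30A5 followed with 15.7 RPKM, SLC30A6 with 14.9 RPKM and SLC30A9 with 14.3 RPKM, and the order of these near values was not tested. SLC30A1 and SLC30A4 were low in CARM1 KO cells, at 2.74 and 2.49 RPKM.

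**Figure D4:**
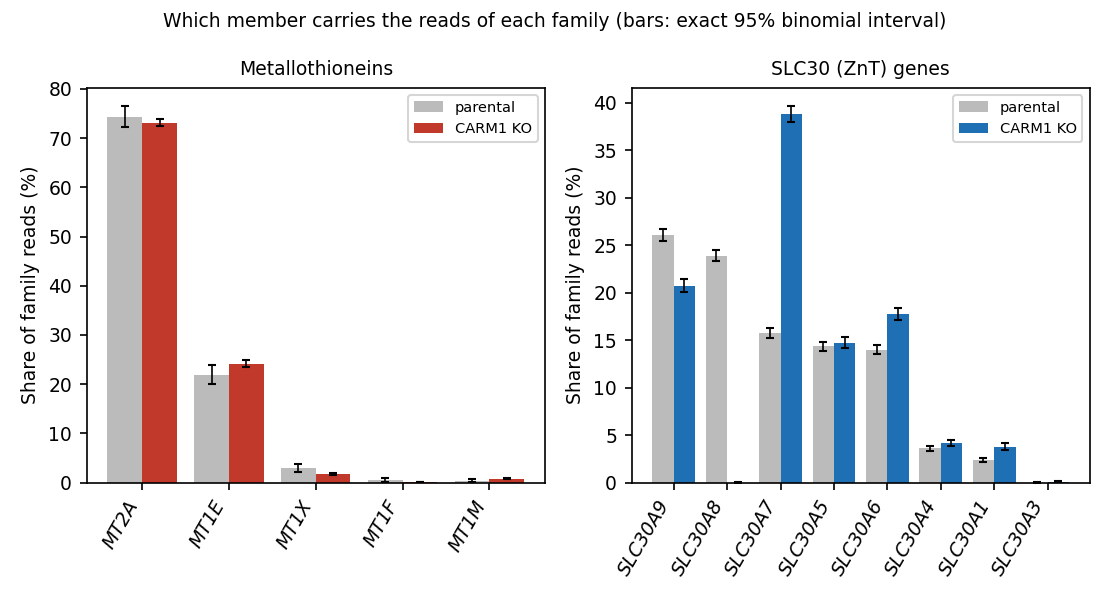
Share of the reads of the metallothionein genes (left) and of the SLC30 genes (right) that each member took, in % of the family's reads, in parental (grey) and CARM1 KO (coloured) cells, with exact 95% binomial intervals as bars. The intervals of MT2A and of MT1E overlap between the libraries, while SLC30A8 went from 23.9% to 0 and SLC30A7 from 15.8% to 38.8%.

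None of the SLC39 genes was called in either direction, beside 12.4% of all genes with at least 10 reads called higher and 11.2% lower. Of the 14 genes, 11 had at least 10 reads, SLC39A2 and SLC39A12 had 2 reads or fewer, and SLC39A5 had none. Summed over the family, the ratio was 1.00 (95% interval 0.985 to 1.02), with 27407 parental and 28093 CARM1 KO reads, while single members moved in both directions. The median log2 difference of the 11 was 0.35.

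SLC39A4, the intestinal zinc importer whose loss causes acrodermatitis enteropathica, came nearest to the threshold from below. It had 162 parental and 480 CARM1 KO reads, 2.89-fold higher (95% interval 2.42 to 3.48). SLC39A8, which carries zinc and manganese, differed most in the other direction, with 2582 and 1079 reads, 2.45-fold lower (2.28 to 2.63). Its close relative SLC39A14, which carries zinc, iron and manganese, had 4427 and 4488 reads and a ratio of 0.990 (0.9497 to 1.03). The ratios of SLC39A8 and SLC39A14 differed from each other by more than their counting intervals. SLC39A3 had 478 and 242 reads and was 2.02-fold lower (1.73 to 2.37). ENSG00000267001, an annotated gene on the same strand that overlaps SLC39A3, had 42 and 53 reads. SLC39A1, a widely expressed plasma membrane importer, had 3764 and 2950 reads and was 1.31-fold lower (1.24 to 1.37).

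SLC39A6 (LIV-1) and SLC39A10, which are known to form a heteromer at the plasma membrane, went opposite ways. SLC39A6 had 4982 parental and 2964 CARM1 KO reads, 1.72-fold lower (95% interval 1.64 to 1.80). SLC39A10 had 4877 and 7336 reads, 1.47-fold higher (1.42 to 1.52). SLC39A6 thus took 18.2% of the SLC39 reads of parental cells and 10.6% in CARM1 KO cells, while SLC39A10 went from 17.8% to 26.1%. SLC39A7, which releases zinc from the endoplasmic reticulum, had 2346 and 3506 reads and was 1.46-fold higher (1.38 to 1.54). SLC39A13, a zinc transporter of the secretory pathway, had 216 and 372 reads and was 1.68-fold higher (1.42 to 1.998). SLC39A9 and SLC39A11 were 1.27-fold (1.22 to 1.33) and 1.33-fold (1.13 to 1.56) higher. SLC39A9 overlaps ERH on the opposite strand, which had 6188 and 5863 reads, and SLC39A7 overlaps RXRB on the opposite strand, with 307 and 680 reads.

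**Figure D5:**
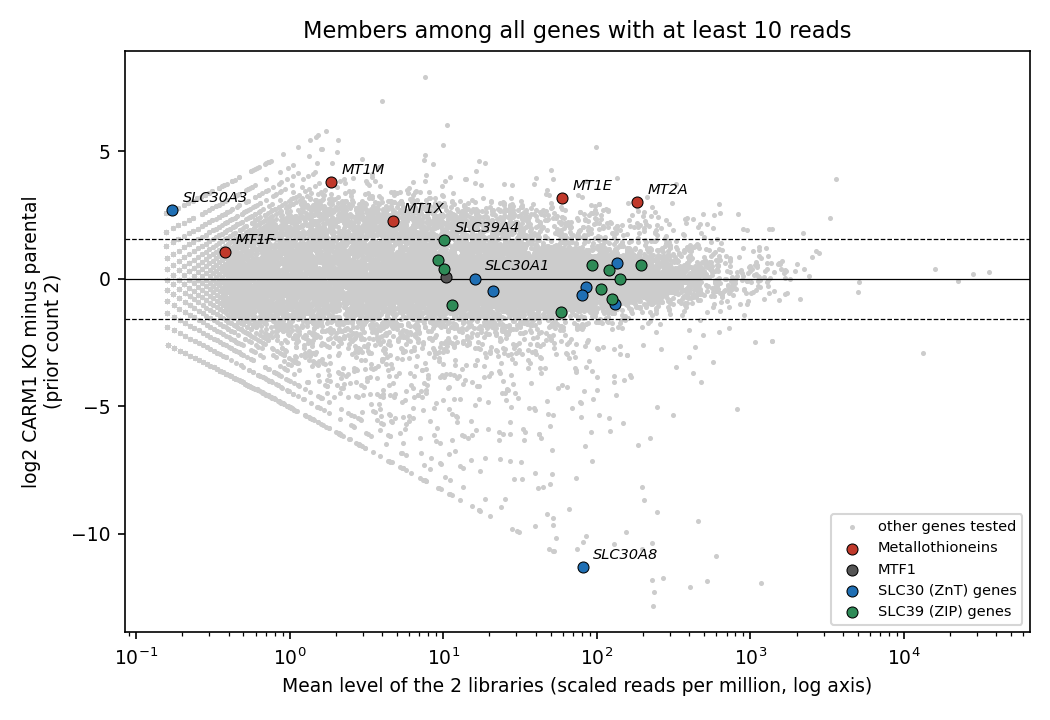
log2 difference (CARM1 KO minus parental, prior count 2, 1 library each) against the mean level of the libraries (scaled CPM, log axis) for all 18563 genes with at least 10 reads (grey) and for the members (coloured), with dashed lines at a fold of 3. MT2A, MT1E, MT1M, MT1X and SLC30A3 lie above the upper line and SLC30A8, plotted with its prior count because it has 0 reads in CARM1 KO cells, lies below the lower line.

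SLC30A1 lies on chromosome 1 in a stretch where most neighbours were lower in CARM1 KO cells, which was examined after its values were seen. The median log2 difference of its 20 nearest protein-coding genes with at least 10 reads was -1.04. Of them 4 were called higher and 3 lower, beside 12.4% and 9.02% of all protein-coding genes with at least 10 reads. The nearest on one side, TRAF5, had 592 and 170 reads, a ratio of 0.280, and the nearest on the other, NEK2, had 2127 and 1025 reads, a ratio of 0.471. SLC30A1 itself was at 0.01 on the same scale. For the other transporter genes and MTF1 the neighbours' median lay between -0.73 for SLC30A3 and 1.201 for SLC30A8.

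Metallothioneins also bind copper, and genes of copper transport were read alongside. Of 12 with at least 10 reads, 0 were called higher and 0 lower, beside 12.4% and 11.2% of all genes. Their ratios were above 1 for 6 and below 1 for 6, and the median log2 difference was -0.16. SLC31A1, the main copper importer, had 1600 parental and 1148 CARM1 KO reads, 1.43-fold lower (95% interval 1.32 to 1.54). SCO1, a copper chaperone of cytochrome c oxidase, was 2.10-fold lower (1.98 to 2.23), with 3254 and 1586 reads. COX17, a copper chaperone of mitochondria, had 1761 and 1396 reads, and COMMD1, which takes part in copper export, had 880 and 534 reads. The widest difference in the list was that of STEAP3, a metalloreductase, with 184 and 441 reads, 2.34-fold higher (1.97 to 2.80), which is named after its values were seen. SCO2 was not analysed here.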

How the data were processed

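The data were 1 RNA-Seq library each of parental and CARM1 KO A1847 cells. Libraries were made from total RNA with the ScriptSeq Complete Gold kit and sequenced as 75 bp pairs. The authors aligned reads with bowtie2 to hg19, estimated counts per Ensembl gene with RSEM (version 1.2.3 in the submitters' processing notes, another version in the methods) and deposited whole-number counts without normalization. Symbols, positions and canonical transcript lengths came from GENCODE 44 lifted to GRCh37, which held 55501 of 57736 identifiers. Counts were scaled by TMM in edgeR 4.0.16 under R 4.3.3. Exact 95% binomial intervals were computed with scipy 1.17.1, log2 differences used a prior count of 2, and a count of 0 was set to 3 reads for a bound. A single library per group leaves the quasi-likelihood test of edgeR without residual degrees of freedom, so the main calls rest on no such test. The exact test of edgeR was used only as an alternative, with an assumed coefficient of variation. The steps were tested on simulated counts. Every member is accounted for, with counts for those of 10 or more reads, and from each other list the genes called and up to 4 of highest count were eligible to be named. Whether counting used strand is not given in the sources used here. Promoters came from RefSeq (GRCh38.p14). Markers, the targeted gene and neighbouring genes were also read. The members, gene lists and alternatives were chosen with earlier results of these data known, and the neighbours of single members, the promoter search, the shared stretches and the family shares after their values were seen. Alternatives included DESeq2 1.42.0 size factors.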

Additional observations from a re-analysis of the deposited data

How the results depend on the processing

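TMM was replaced by library size only, DESeq2 size factors, upper-quartile scaling and TMM on protein-coding genes only, which shifted all log2 differences by between -0.04 and 0.03. Under each of these 5 members were called higher and 1 lower, and of 100 further comparisons of single members all 100 stayed within the counting interval of their value. A scaling moves every gene by nearly the same small amount, so these comparisons are not separate checks. The median log2 difference of the SLC30 genes became -0.46 both with a minimum of 50 reads and with a minimum of 1 read. With the minimum of 50 reads 4 members were called higher, SLC30A3 being left out by its 11 reads. With a fold above 2 in place of 3, 3 members were called lower (SLC30A8, SLC39A3 and SLC39A8) and 6 higher. The share of all genes called at a fold of 2 was not computed, so these calls have no background. With edgeR's exact test at an assumed coefficient of variation of 0.4 and an FDR under 0.05, 3 members were called higher (MT2A, MT1E and MT1M), MT1X and SLC30A3 lost their call, and SLC30A8 was called lower. There, 543 of the 18563 genes with at least 10 reads were called higher and 888 lower, against 2295 and 2070 by fold and counting interval. The alternative assumed a wider spread than counting alone. At an assumed coefficient of variation of 0.2, MT2A, MT1E, MT1M, MT1X and SLC30A3 were called higher and SLC30A8 lower. At that value 2126 genes were called higher and 1851 lower. Adding the reads of MT1L, an alternative chosen after seeing the data, gave a log2 difference of 3.003 for the metallothionein total against 3.04 without them. Leaving the reads of SLC30A8 out of the SLC30 total, also chosen then, moved the parental share of SLC30A7 from 15.8% to 20.7%. No paired analysis was possible because there was 1 library per group, and for the same reason no library could be left out. The depth limits statements on SLC30A3, MT1F and the 8 members with no read.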

Other observations

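Genes of iron handling, which shares SLC39A14 with zinc, were read as a list. Of 13 with at least 10 reads, 2 were called higher and 4 lower, beside 12.4% and 11.2% of all genes, and the median log2 difference was -0.03. The iron exporter SLC40A1 had 324 parental and 0 CARM1 KO reads, 111-fold lower against 3 reads with an interval that begins at 89.4. SLC11A2 (DMT1), an importer of ferrous iron, had 4984 and 544 reads, 9.38-fold lower (95% interval 8.58 to 10.3). CP had 233 and 39 reads and SLC11A1 had 14 and 3 reads, and both were called lower. The ferritin subunits were higher, FTL with 5206 and 18000 reads (3.38-fold, 3.27 to 3.48) and FTH1 with 4174 and 13825 reads (3.24-fold, 3.12 to 3.35). Both have processed pseudogenes, so the division of their reads is uncertain. The transferrin receptor gene TFRC had 8152 and 3822 reads and was 2.18-fold lower. NCOA4 was not analysed here.

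Other stimuli known to act on metallothionein genes were read through lists of their target genes. The calls of each list stand beside 12.4% called higher and 11.2% called lower of all genes with at least 10 reads. Of 13 NRF2 targets and regulators, 1 was called higher and 0 lower, with a median log2 difference of 0.48. It was SLC7A11, the cystine importer, with 305 parental and 1906 CARM1 KO reads, while TXNRD1 had 12930 and 19846 reads and NQO1 had 8501 and 6812. Of 9 heat shock genes, 2 were called higher and 0 lower, HSPA1A with 2968 and 14918 reads and HSPA1B with 4313 and 13305 reads, and the median was 0.25. HSPA1A and HSPA1B are near-identical copies, so their division is uncertain. Of 7 genes of the glucocorticoid response with at least 10 reads, 3 were called higher and 3 lower, with a median of 0.31. NR3C1, the glucocorticoid receptor gene, had 792 and 3979 reads and was 4.91-fold higher (95% interval 4.55 to 5.30), and SGK1, with 145 and 901 reads, and DUSP1, with 987 and 3045 reads, were also called higher. FKBP5, with 3620 and 1060 reads, PER1, with 145 and 22 reads, and KLF9, with 453 and 134 reads, were called lower. Whether any of these differences bears on the metallothioneins was not tested.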
